A study of Mus musculus with 4 samples.

Results

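The genes described here were chosen by name alone, and they include those of the machinery that docks, primes and fuses synaptic vesicles. Every gene of the deposited table whose symbol began with Syt, Stx, Vamp, Snap, Cplx, Syn or Rims followed by a digit, or with Rab3, was taken, together with Bsn, Pclo and Ctbp2. This gave 78 of the 23996 genes in the table. The Rab3 pattern also took in 12 genes from Rab30 to Rab39b, which are other small GTPases, and the Snap pattern took in Snap91, a clathrin assembly protein. The Stx and Vamp patterns took in 8 endosomal and Golgi syntaxins and 4 VAMP genes of other membranes. All 78 are called release genes below for short, whatever their role. Otof and Slc17a8 were outside the rule and are given only beside the others.

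The cells came by sorting from cochlear epithelium of C57BL/6 mice aged 7 postnatal days, all of them Sox2-CreER+/Atoh1-HA+/Atoh1-eGFP+/tdTomato+. The new hair cells (2 libraries) were eGFP+/tdTomato+, that is, cells in which a Sox2-driven, tamoxifen-activated Cre had switched on both an Atoh1 transgene behind the CAG promoter and tdTomato. The original hair cells (2 libraries) were eGFP+ alone and had arisen in normal development. The tamoxifen dose was 0.20 mg per g of body weight, given on postnatal day 3, and a control group received corn oil. Details of whether original hair cells came from animals given tamoxifen or oil, and whether libraries came from separate animals or pools, were not given in the sources used here. Sox2 is expressed by supporting cells, the epithelial cells around hair cells, so Cre acts there. Total RNA was amplified with the low-input SMART-Seq v4 kit, per the labels' protocols.

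At a chemical synapse, a vesicle protein of the VAMP family and plasma membrane proteins of the syntaxin and SNAP-25 families (together called SNAREs) zip up and fuse the membranes. Synaptotagmins sense calcium, complexins clamp and promote fusion, RIM and Rab3 proteins tether vesicles near calcium channels, and synapsins hold a reserve of vesicles. Hair cells release glutamate at ribbon synapses, where the ribbon is built mainly of RIBEYE, a product of Ctbp2, and where otoferlin (Otof) takes the place that synaptotagmins have in most neurons.

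The table held 1 FPKM value per gene and group (a fragment count scaled to transcript length and to all mapped fragments). Values below therefore carry no replicate error, and the spread between libraries is unknown. The depth of each library is unknown. FPKM summed to 244225 in new and 2165833 in original hair cells, and 1 scale factor for all genes would move every log2 ratio alike, so directions below are on the deposited scale unless another scaling is named. Other scalings were a trimmed-mean factor, quantile normalization and equal FPKM sums. All 12 hair cell markers on a fixed list were lower in new hair cells, except that Pou4f3 turned higher under the 3 other scalings and Cib2 under quantile normalization and equal sums. Their summed FPKM was 1062 in new and 41837 in original cells. Of 12 supporting cell markers that could be compared, 8 were higher in new hair cells (11 under quantile normalization, 12 with equal sums). Of all compared genes 45.3% were higher as deposited, and only 22.3% were lower with equal sums. These markers summed to 5441 FPKM in new and 20891 FPKM in original cells. Most of the original sum was S100a1, at 3617 FPKM in new and 15179 FPKM in original cells. Fbxo2 followed, at 667 FPKM in new and 5421 FPKM in original cells. Both were among the lower markers, so the sum and the count went opposite ways. In bulk samples, fewer cells of a type and less RNA per cell cannot be told apart.

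A gene was compared if it was above 0 in both groups and reached 1 FPKM in either, as did 40 of the 78 release genes and 9026 genes in all. On the log2(FPKM + 1) scale, 22 of the 40 (55%) were lower in new hair cells and 18 were higher, where 54.7% of all compared genes were lower and 45.3% higher. At least 2-fold lower were 10 of the 40 (25%), against 34.9% of all compared genes, and at least 2-fold higher were 7 (17.5%), against 19.9%. The median log2 difference, new minus original, was -0.29 for the release genes and -0.21 for all compared genes. The 40 genes together thus stood near the background in direction and had a smaller share at least 2-fold lower. That share depended on the Rab30 to Rab39b genes, of which 0 were at least 2-fold lower. Without them 10 of 33 (30.3%) were at least 2-fold lower, against 34.9% of all compared genes. By direction 20 of the 33 (60.6%) were lower, against 54.7%. Of the 40, 2 (Rims2 and Snap91) had p under 0.05, before adjustment, in the authors' deposited table, both lower, where 8.83% of all compared genes were lower at that p and 0.554% higher. After Benjamini-Hochberg adjustment of the deposited p-values over the 9026 compared genes 0 release genes and 0% of all genes passed 0.05, the smallest adjusted p being 0.526, which Rims2 and Snap91 shared. With no gene past the adjusted threshold, higher and lower below describe 2 deposited values.

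The spread within the list was wide, from -7.01 in Syn1 to 3.07 in Rab37 on the log2(FPKM + 1) scale. Under the deposited scaling and the other 3, 5 genes (Syn1, Snap91, Syn3, Rims2 and Stx6) were lower in new hair cells every time, 12.5% of the 40, against 22.1% of all compared genes. Another 18 were higher every time (45%, against 45.2%), and the direction of the remaining 17 depended on the scaling. Just 3 genes, Stx6, Snap91 and Stx4a, held 68.6% of the summed FPKM of the 78 in original hair cells. In new hair cells the leading 3, Vamp8, Stx4a and Rab34, held 51.3%.

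**Figure D1:**
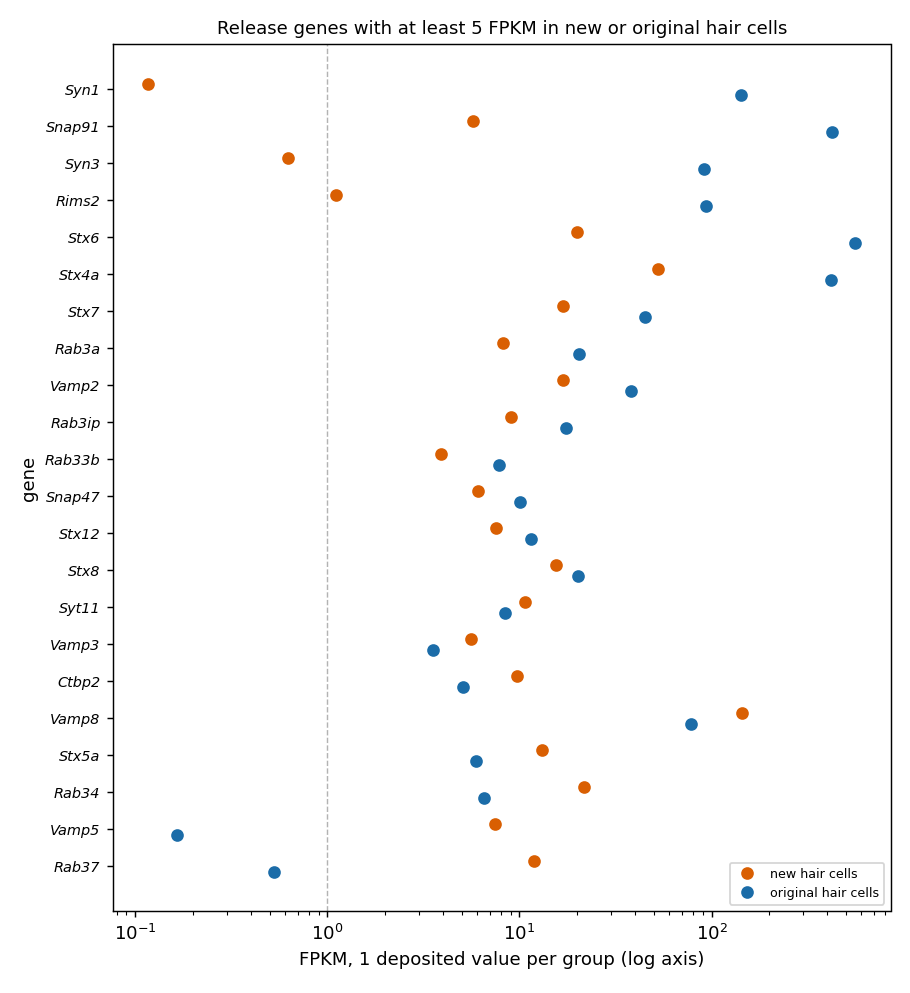
FPKM of the 22 release genes with at least 5 FPKM in either group, on a log axis, 1 deposited value per group, with new hair cells (orange) drawn above original hair cells (blue) in each row and a dashed line at 1 FPKM. Genes are sorted by their difference: Syn1 at the top stands at 0.117 FPKM in new and 143 FPKM in original cells, and Rab37 at the bottom at 11.9 FPKM in new and 0.530 FPKM in original cells.

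The ribbon and active zone genes went in different directions. Ctbp2 (mm10, chromosome 7, 132987011 to 133123483, minus strand), which encodes both RIBEYE and a nuclear corepressor, stood at 9.68 FPKM in new and 5.07 FPKM in original hair cells. It was 1.91-fold higher in new cells and stayed higher under each other scaling, with p = 0.566 in the authors' deposited table. The 2 products of Ctbp2 share 1 value in the table, so the ribbon transcript cannot be read apart from the corepressor. Rims2 (chromosome 15, 39198286 to 39684372, plus strand), the RIM protein known to promote calcium channel clustering at inner hair cell synapses, stood at 1.12 FPKM in new and 93.1 FPKM in original cells. That is an 83.4-fold lower level in new cells, with p = 0.0185 in the authors' deposited table. It was lower under each other scaling. Among all genes of its column Rims2 ranked at percentile 68.6 in new and 93.8 in original hair cells.

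The other 5 scaffold genes were low in both groups. Bsn, whose product bassoon anchors the ribbon, was listed at 0.0127 FPKM in new and 0.106 FPKM in original cells. Pclo, the related scaffold piccolo, was at 0.499 FPKM in new and 0.231 FPKM in original cells. Rims1 was listed at 0 in new and 0.00989 FPKM in original cells, Rims3 at 0.104 FPKM in new and 0 in original cells, and Rims4 at 0 in both. None of these reached 1 FPKM, so only Ctbp2 and Rims2 of this group could be compared.

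The synapsins Syn1 and Syn3 and the vesicle recycling gene Snap91 were, with Rims2, the 4 members with the widest differences on the log2(FPKM + 1) scale. Syn1 (chromosome X, 20848543 to 20920918, minus strand), a vesicle tether of neurons, stood at 0.117 FPKM in new and 143 FPKM in original hair cells, a 1218-fold lower level in new cells. Its p in the authors' deposited table was 0.370, far from the smallest in the list although its difference was the largest. Syn3 (chromosome 10, 86048746 to 86498896, minus strand) stood at 0.627 FPKM in new and 91.1 FPKM in original cells, 145-fold lower in new cells, with p = 0.124 in the authors' deposited table. Syn2 was at 0.180 FPKM in new and 0.0905 FPKM in original cells. Only Syn1 and Syn3 of the 3 synapsins were therefore above 1 FPKM in original cells, and no synapsin was in new cells. The Syn1 row shares its locus with Araf, Timp1 and a microRNA gene, and the Syn3 row with Timp3 and 1 further gene, so reads may have been divided between them. Timp1 was listed at 0 in new and 0.00242 FPKM in original cells, and Timp3 at 1.85 FPKM in new and 0.768 FPKM in original cells. Araf stood at 5.22 FPKM in new and 22.7 FPKM in original cells.

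Snap91 (chromosome 9, 86765927 to 86880449, minus strand) encodes AP180, which assembles clathrin coats on recycling synaptic vesicles. It stood at 5.71 FPKM in new and 424 FPKM in original cells, 74.2-fold lower in new cells, with p = 0.00415 in the authors' deposited table. It ranked at percentile 85.4 in new and 97.2 in original hair cells, so it remained among the more abundant genes of the new cells. No other gene shares its locus in the table.

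Markers of neurons were examined beside these genes, since synapsins, RIM and AP180 are also abundant in neurons. Of 15 spiral ganglion neuron markers on a fixed list, 5 could be compared, 4 of them lower in new hair cells and 1 higher (2 lower and 3 higher with equal sums), with a summed 405 FPKM in new and 3907 FPKM in original cells. In new cells most of the sum was Uchl1, at 325 FPKM in new and 75.7 FPKM in original cells, 4.29-fold higher in new cells and higher under each other scaling. Gata3 stood at 66.9 FPKM in new and 300 FPKM in original cells. Most of the original sum was Nefl, at 2.70 FPKM in new and 3214 FPKM in original cells, followed by Rbfox3 at 5.63 FPKM in new and 309 FPKM in original cells. The remaining marker above 1 FPKM, Nefm, was at 2.02 FPKM in new and 4.99 FPKM in original cells. The other 10 markers were under 1 FPKM in both groups, among them Tubb3 at 0.349 FPKM in new and 0.494 FPKM in original cells, Stmn2 at 0.261 FPKM in new and 0.333 FPKM in original cells, and Prph listed at 0 in new and 0.377 FPKM in original cells.

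Markers of 3 further cell types moved too. Of 8 mesenchyme and fibroblast markers 7 could be compared, 5 lower and 2 higher in new hair cells, with a summed 413 FPKM in new and 2033 FPKM in original cells. Otor stood at 0.226 FPKM in new and 1383 FPKM in original cells, Col1a1 at 0.0847 FPKM in new and 59.4 FPKM in original cells, and Lum at 375 FPKM in new and 89.4 FPKM in original cells. Of 7 Schwann cell and glia markers 5 could be compared, 3 lower and 2 higher, with a summed 20.7 FPKM in new and 996 FPKM in original cells. Most of the original sum was 1 gene, Cnp, at 3.998 FPKM in new and 983 FPKM in original cells. The 2 higher were Egr2, at 6.97 FPKM in new and 0.235 FPKM in original cells, and Mbp, at 7.35 FPKM in new and 2.31 FPKM in original cells. Of 6 macrophage markers 2 could be compared, Tyrobp at 71.7 FPKM in new and 3.24 FPKM in original cells, and C1qb at 0.364 FPKM in new and 2.08 FPKM in original cells, while Ptprc was listed at 0 in both groups. The summed macrophage markers were 72.1 FPKM in new and 5.99 FPKM in original cells. With equal sums the mesenchyme list had 4 lower and 3 higher, the glia list 2 lower and 3 higher, and both macrophage markers were higher. The part of these 4 marker lists in the differences of Rims2, Snap91 and the synapsins was not tested.

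The 250 bases before the RefSeq transcription start (GRCm38.p6, the build also called mm10) are shown for 4 members, Snap91 (chr9:86880709-86880958, minus strand) and Syn1 (chrX:20920919-20921168, minus strand) from the lower end of the range, Vamp5 (chr6:72380469-72380718, minus strand) as the second highest of the list on the log2(FPKM + 1) scale, and its neighbour Vamp8 (chr6:72390668-72390917, minus strand) as the most abundant release gene of the new cells. Windows of Rab37, Syn3 and Rims2 were not used here. All are written 5′ to 3′ on the gene's strand, and capitals mark the E-box letters CANNTG, the class of site that Atoh1 and other basic helix-loop-helix proteins bind. The letters read the same on both strands.
Snap91: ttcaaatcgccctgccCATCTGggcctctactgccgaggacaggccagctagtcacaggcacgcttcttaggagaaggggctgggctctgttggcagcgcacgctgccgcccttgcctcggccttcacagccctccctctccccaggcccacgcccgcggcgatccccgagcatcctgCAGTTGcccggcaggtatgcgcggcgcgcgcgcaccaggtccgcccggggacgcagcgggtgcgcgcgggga
Syn1: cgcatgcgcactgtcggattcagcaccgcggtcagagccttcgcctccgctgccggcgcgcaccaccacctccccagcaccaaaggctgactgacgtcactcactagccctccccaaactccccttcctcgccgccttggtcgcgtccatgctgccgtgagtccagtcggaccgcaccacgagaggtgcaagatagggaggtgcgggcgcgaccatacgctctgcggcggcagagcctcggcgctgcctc
Vamp5: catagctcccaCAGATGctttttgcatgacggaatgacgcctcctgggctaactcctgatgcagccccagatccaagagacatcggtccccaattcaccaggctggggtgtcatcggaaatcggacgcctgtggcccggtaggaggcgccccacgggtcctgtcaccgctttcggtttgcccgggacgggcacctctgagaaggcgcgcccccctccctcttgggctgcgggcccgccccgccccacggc
Vamp8: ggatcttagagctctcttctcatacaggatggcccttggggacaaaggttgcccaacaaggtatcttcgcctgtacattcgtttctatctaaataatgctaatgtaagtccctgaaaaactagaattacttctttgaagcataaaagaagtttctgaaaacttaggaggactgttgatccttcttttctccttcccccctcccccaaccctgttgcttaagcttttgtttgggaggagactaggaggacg

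The Snap91 window held 2 matches to CANNTG, the Vamp5 window 1, and the Syn1 and Vamp8 windows 0. Of all 32851 promoter windows of this length 66.2% held at least 1 match, and of the 78 windows that belong to 59 release genes matched by symbol, 66.7% did. Among the compared release genes, 25 of 41 windows did (61.0%). These letters describe sequence and not binding. Their share of G and C was 71.2% in Snap91, 68.0% in Syn1, 66.0% in Vamp5 and 43.6% in Vamp8.

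Most genes of the neuronal fusion machinery were low in both kinds of hair cell, Vamp2 being an exception described further on. Low values were common in the table too, where 7808 of all 23996 genes reached 1 FPKM in new and 7744 in original cells. Being low was therefore not particular to these genes. Among the 8 calcium-binding synaptotagmins, Syt1, the main calcium sensor of fast release in forebrain neurons, stood at 1.84 FPKM in new and 1.53 FPKM in original cells. Syt2, its relative in hindbrain and fast synapses, was at 0.00914 FPKM in new and 0.0270 FPKM in original cells, and Syt7, a slow high-affinity sensor, at 0.0690 FPKM in new and 0.384 FPKM in original cells. Only Syt1, Syt5 and Syt6 could be compared, and each differed by less than 2-fold on the log2(FPKM + 1) scale. Syt5 stood at 0.552 FPKM in new and 1.19 FPKM in original cells, 2.15-fold lower in new cells as a plain FPKM ratio. Syt6, whose row shares its locus with 9 other genes, was at 1.16 FPKM in new and 0.355 FPKM in original cells, 3.28-fold higher by that measure. Syt3, Syt9 and Syt10 were under 1 FPKM in both groups. No calcium-binding synaptotagmin reached 2 FPKM in either group, where Otof stood at 12.3 FPKM in new and 1945 FPKM in original hair cells.

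Synaptotagmins outside that group included the most abundant ones. Syt11, which lacks calcium binding, was at 10.7 FPKM in new and 8.37 FPKM in original cells, and Syt13, also without calcium binding, at 4.79 FPKM in new and 1.41 FPKM in original cells, 3.40-fold higher in new cells. Both were higher under each other scaling, with p = 0.845 and p = 0.378 in the authors' deposited table. Syt15 was under 1 FPKM in both groups, at 0.00230 FPKM in new and 0.860 FPKM in original cells. Syt4, which influences the calcium dependence of release in mouse inner hair cells, was listed at 0.000480 FPKM in new and 0.0138 FPKM in original cells.

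**Figure D2:**
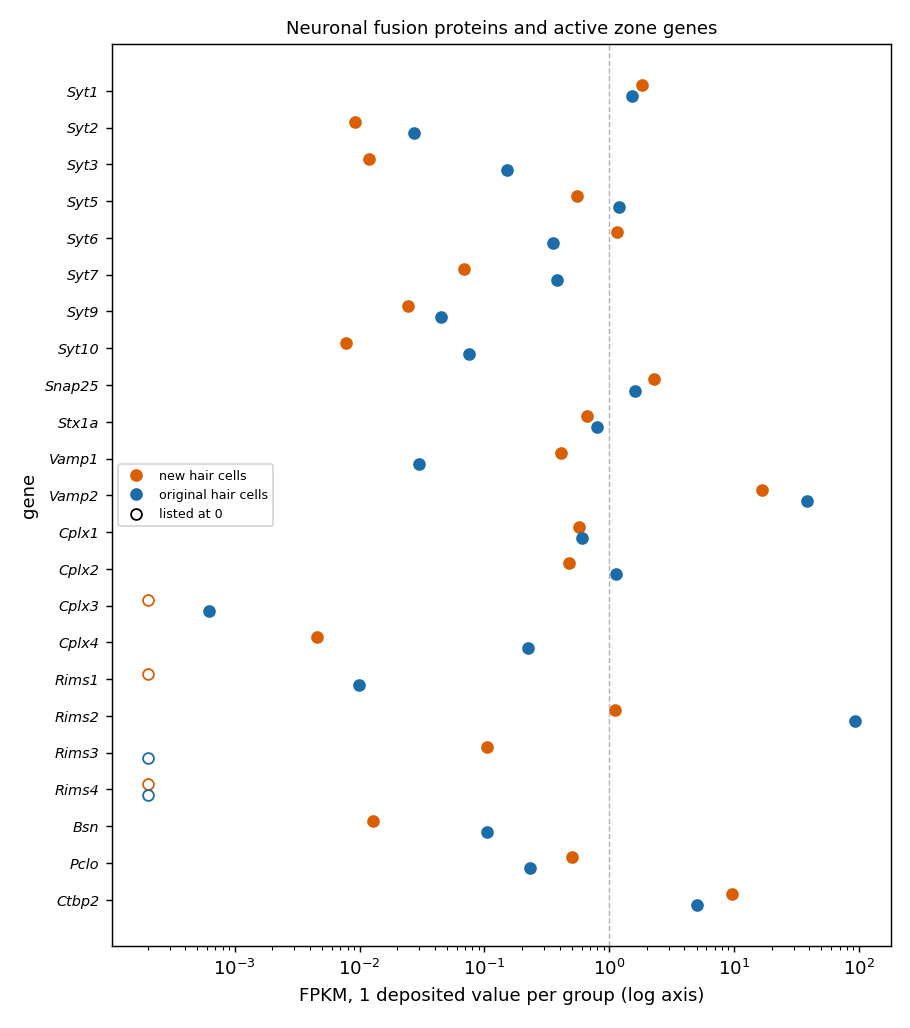
FPKM of 23 neuronal fusion and active zone genes on a log axis, 1 deposited value per group, with new hair cells (orange) above original hair cells (blue) in each row, open symbols at the left edge for values listed at 0, and a dashed line at 1 FPKM. Left of 1 FPKM in both groups lie 15 of the 23 genes, and right of it in both lie Syt1, Snap25, Vamp2, Rims2 and Ctbp2. Among genes above 0 in both groups Rims2 has the widest gap, at 1.12 FPKM in new and 93.1 FPKM in original cells. Gaps that end in an open symbol have no measured width.

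The neuronal target-membrane SNAREs were as low. Snap25 stood at 2.27 FPKM in new and 1.59 FPKM in original cells, and Stx1a at 0.668 FPKM in new and 0.797 FPKM in original cells. Snap23, the broadly expressed relative of Snap25, was at 3.37 FPKM in new and 3.85 FPKM in original cells, and Snap29, active in autophagy and endosomal fusion, at 0.749 FPKM in new and 0.630 FPKM in original cells. Snap47 was the most abundant of the family in both groups, at 6.10 FPKM in new and 10.1 FPKM in original cells. All 3 SNAP-25 family members that could be compared (Snap23, Snap25 and Snap47) differed by less than 2-fold on the log2(FPKM + 1) scale.

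Complexins were low as well. Cplx1 was at 0.569 FPKM in new and 0.609 FPKM in original cells, and Cplx2 at 0.473 FPKM in new and 1.13 FPKM in original cells. The ribbon-synapse complexins of the retina, Cplx3 and Cplx4, were lower still, Cplx3 listed at 0 in new and 0.000623 FPKM in original cells and Cplx4 at 0.00452 FPKM in new and 0.225 FPKM in original cells. Cplx2 alone could be compared, and its log2 difference was -0.53, turning to 1.28 under equal sums.

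The vesicle SNARE Vamp2, by contrast, was well above these levels. It stood at 16.8 FPKM in new and 38.1 FPKM in original cells (chromosome 11, 69088528 to 69092381), 2.26-fold lower in new cells on the deposited scale but higher under quantile normalization and under equal sums. Its rank hardly differed, at percentile 92.8 in new and 91.2 in original hair cells, and its p in the authors' deposited table was 0.525. Vamp1, the other neuronal vesicle SNARE, was at 0.413 FPKM in new and 0.0300 FPKM in original cells. Vamp3, its broadly expressed relative, was at 5.58 FPKM in new and 3.55 FPKM in original cells and was higher under each other scaling.

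The 3 VAMP genes of other membranes that could be compared were all higher in new hair cells under each scaling. Of all compared genes 45.2% were likewise higher under each scaling. Vamp8 (chromosome 6, 72385221 to 72390667, minus strand), which serves endosomal fusion and secretion in exocrine cells, was the most abundant release gene of the new cells, at 144 FPKM in new and 78.3 FPKM in original cells, with p = 0.591 in the authors' deposited table. Vamp5 (chromosome 6, 72368049 to 72380468, minus strand), known from muscle, stood at 7.44 FPKM in new and 0.166 FPKM in original cells, 44.9-fold higher in new cells, with p = 0.057 in the authors' deposited table. The loci of Vamp5 and Vamp8 lie 4752 bases apart on the same strand. Vamp4, a trans-Golgi SNARE, was at 1.23 FPKM in new and 0.695 FPKM in original cells. Vamp7 was listed at 0 in both groups, on an unplaced fragment of chromosome X, so its value is uncertain.

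Stx4a and Stx6 were the most abundant syntaxins in both groups. Stx6 (chromosome 1, 155158703 to 155203517, plus strand), of the trans-Golgi network, stood at 20.0 FPKM in new and 559 FPKM in original cells, the highest release gene of the original cells. It was 28.0-fold lower in new cells, lower under each other scaling, with p = 0.0514 in the authors' deposited table. Stx4a (chromosome 7, 127841808 to 127848965, plus strand), the plasma membrane syntaxin of many secretory cells, stood at 52.5 FPKM in new and 417 FPKM in original cells, 7.93-fold lower in new cells, with p = 0.215 in the authors' deposited table. Under equal sums the log2 difference of Stx4a turned to 0.16, and its percentile was 96.9 in new and 97.1 in original hair cells. Both thus stayed among the most abundant genes of the new cells.

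The endosomal syntaxins differed less. Stx7 was at 16.9 FPKM in new and 44.8 FPKM in original cells, Stx8 at 15.5 FPKM in new and 20.1 FPKM in original cells, and Stx12 at 7.55 FPKM in new and 11.4 FPKM in original cells. These 3 were lower in new cells on the deposited scale and with the trimmed-mean factor, but higher under quantile normalization and under equal sums. Stx5a, of the Golgi, went the other way at 13.1 FPKM in new and 5.92 FPKM in original cells, and Stx3, found at apical membranes and at ribbon synapses of the retina, at 3.55 FPKM in new and 1.13 FPKM in original cells. Both were higher under each other scaling, with p = 0.498 and p = 0.505 in the authors' deposited table. Stx16, Stx18, Stx17 and Stx2 lay between 0.436 and 1.86 FPKM in each group. The summed FPKM of the 8 endosomal and Golgi syntaxins was 75.5 in new and 645 in original cells, most of the original sum being Stx6.

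**Figure D3:**
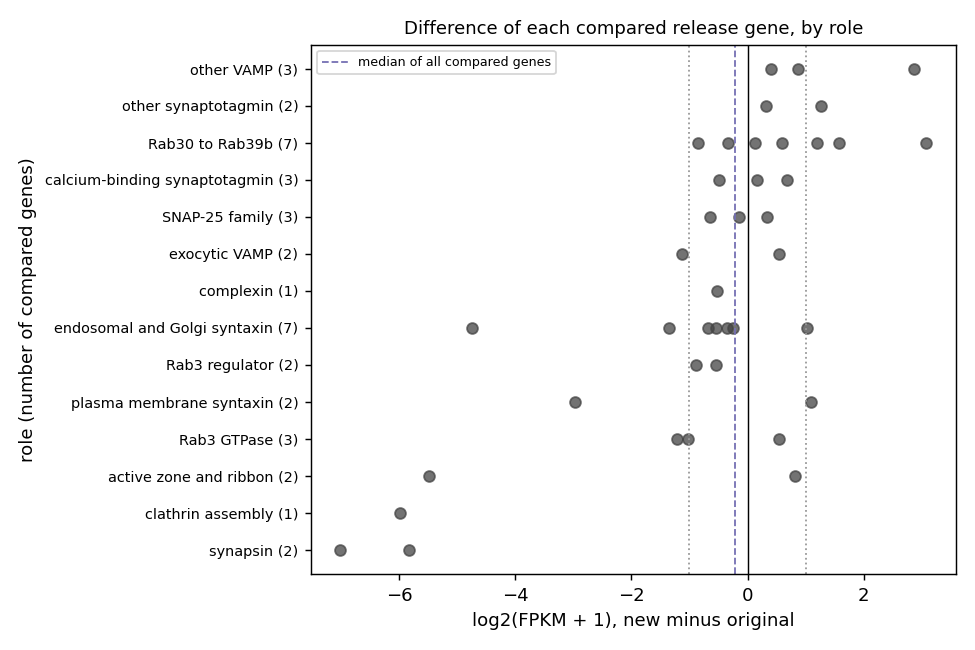
Difference in log2(FPKM + 1), new minus original, of the 40 compared release genes, each point 1 gene, grouped by role with the number of compared genes in brackets. The solid line marks 0, dotted lines mark a 2-fold difference, and the dashed line marks the median of all 9026 compared genes (-0.21). Synapsins, the clathrin assembly gene Snap91 and Rims2 lie near -5 to -7, and 23 of the 40 points lie within 2-fold.

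Rab3 proteins carry vesicles to the active zone and bind RIM. Rab3a stood at 8.23 FPKM in new and 20.3 FPKM in original cells, 2.47-fold lower in new cells on the deposited scale but higher under equal sums, with p = 0.648 in the authors' deposited table. Its rank was similar, at percentile 88.2 in new and 88.8 in original hair cells. Its row (chromosome 8, 70754679 to 70760921) shares a locus with Mpv17l2, which stood at 162 FPKM in new and 18.4 FPKM in original cells, so the value of Rab3a is uncertain. Rab3b was at 0.773 FPKM in new and 2.63 FPKM in original cells, Rab3d at 1.41 FPKM in new and 0.660 FPKM in original cells, and Rab3c at 0.134 FPKM in new and 0.125 FPKM in original cells. Among regulators of these GTPases, Rab3ip (Rabin8, an exchange factor for Rab8) was at 8.996 FPKM in new and 17.5 FPKM in original cells, and Rab3gap1, a subunit of the Rab3 GTPase-activating complex, at 0.398 FPKM in new and 1.05 FPKM in original cells.

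Among the Rab30 to Rab39b genes was Rab37, whose difference towards new hair cells was the largest of the list on the log2(FPKM + 1) scale, although Vamp5 had the larger plain FPKM ratio. Rab37, a GTPase of secretory granules in mast cells, stood at 11.9 FPKM in new and 0.530 FPKM in original cells, 22.4-fold higher in new cells, with p = 0.0872 in the authors' deposited table. Its row shares a locus with Cd300lf, at 0.656 FPKM in new and 0.164 FPKM in original cells. Rab34, needed for the formation of primary cilia, was at 21.6 FPKM in new and 6.57 FPKM in original cells, 3.29-fold higher, and Rab31, of the trans-Golgi network, at 1.99 FPKM in new and 0.304 FPKM in original cells. All 3 were higher under each other scaling. Rab33b, a Golgi GTPase, was at 3.92 FPKM in new and 7.87 FPKM in original cells. Of the 7 genes of this group that could be compared 5 were higher in new cells and 2 (Rab33b and Rab36) lower, where 45.3% of all compared genes were higher. With equal sums all 7 were higher, but only 22.3% of all compared genes were lower under that scaling.

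Few release genes were listed at 0. Of the 78 genes 4 (5.13%) were at 0 in new and above 0 in original cells (Rims1, Cplx3, Stx19 and Rab39), against 4.87% of all genes. Another 2 (2.56%), Rims3 and Syt16, were above 0 in new and at 0 in original cells, against 8.94% of all genes. At 0 in both were 5 (6.41%), Rims4, Stx11, Syt8, Vamp7 and Rab38, against 27.0% of all genes. Rab39 had the smallest p of the list in the authors' deposited table, 0.00125, with 0 in new and 0.521 FPKM in original cells. It was under the 1 FPKM limit and could not be compared, and it is named because of that p. A further 27 of the 78 genes were above 0 in both groups but under 1 FPKM in each, against 5189 of all 23996 genes. That is a larger share in this list than in the table.

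The size of a difference followed the level in original cells, in these genes as in the table at large. Of the 9 release genes with at least 30 FPKM in original cells, 8 were at least 2-fold lower in new cells, a share of 88.9%, against 86.8% of the 2296 compared genes at that level. Vamp8 was the exception. Of the 7 release genes under 1 FPKM in original cells, 3 were at least 2-fold higher in new cells, a share of 42.9%, against 49.7% of the 1406 genes at that level. Between 5 and 30 FPKM in original cells 1 of 10 release genes was at least 2-fold lower, against 35.5% of 2135 genes. A gene selected for a high value in 1 column tends to stand lower in the other, so these shares are a description. Across the 40 release genes, Spearman's rho between both columns was 0.43, and 0.49 across all compared genes, which share the same libraries and are not independent.

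Other genes of release and vesicle recycling were taken from a fixed list of which 59 were in the table, leaving out Otof and Slc17a8. Of these 26 could be compared, of which 12 (46.2%) were at least 2-fold lower in new cells and 4 (15.4%) at least 2-fold higher, with a median log2 difference of -0.92. Over all compared genes the shares were 34.9% and 19.9% and the median -0.21. Under equal sums 6 of the 26 were at least 2-fold lower and 15 at least 2-fold higher, where 15% of all compared genes were lower and 69.6% higher by that much. In the authors' deposited table p was under 0.05 for 5 of the 26, each lower in new cells, where 8.83% of all compared genes were lower at that p. Active zone partners of RIM were among them. Erc2, an active zone scaffold, stood at 0.733 FPKM in new and 316 FPKM in original cells, with p = 0.0003 in the authors' deposited table. The liprins Ppfia3 and Ppfia4, which organise the active zone, stood at 0.685 FPKM in new and 53.1 FPKM in original cells, and at 0.375 FPKM in new and 110 FPKM in original cells.

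The other two with such a p were genes of endocytosis, where Snap91 acts. Dnm1, the dynamin that pinches off vesicles in neurons, stood at 1.72 FPKM in new and 156 FPKM in original cells, and Amph, which recruits dynamin, at 1.49 FPKM in new and 101 FPKM in original cells. Dnajc5, a vesicle chaperone, was at 4.59 FPKM in new and 57.0 FPKM in original cells, with p = 0.0944 in the authors' deposited table. The 4 genes of the list at least 2-fold higher on the log2(FPKM + 1) scale were Erc1, Bin1, Napg and Cabp2. Erc1 stood at 2.95 FPKM in new and 0.327 FPKM in original cells. Bin1 was at 5.58 FPKM in new and 1.24 FPKM in original cells, and Napg at 2.81 FPKM in new and 0.859 FPKM in original cells. Some other genes of the list differed less between groups than Vamp2, which was 2.26-fold lower in new cells. Napa, which works with NSF to take SNARE complexes apart, was at 28.9 FPKM in new and 22.0 FPKM in original cells, Ap2m1, a clathrin adaptor subunit, at 57.3 FPKM in new and 114 FPKM in original cells. Cabp2, a calcium channel regulator of hair cells, was at 46.3 FPKM in new and 22.3 FPKM in original cells, and Cacna1d, their presynaptic calcium channel, at 2.70 FPKM in new and 5.56 FPKM in original cells. The rows of Ppfia3, Dnm1, Bin1 and Cacna1d share a locus with other genes. Slc17a8, the vesicular glutamate transporter of inner hair cells, was at 0.454 FPKM in new and 46.7 FPKM in original cells.

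**Figure D4:**
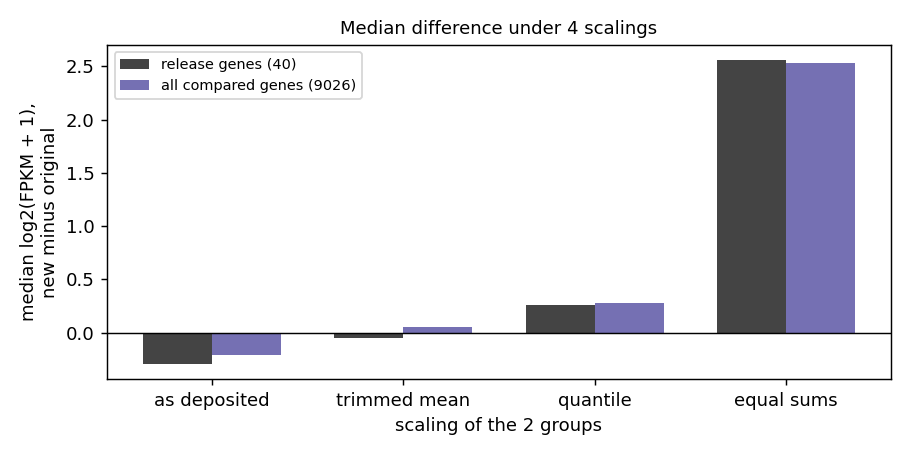
Median difference in log2(FPKM + 1), new minus original, of the 40 compared release genes (dark bars) and of all 9026 compared genes (violet bars) under 4 scalings of the groups. The release genes stand at -0.29 as deposited and 2.56 with equal sums, all compared genes at -0.21 and 2.53, and the bars of a pair differ by at most 0.10 in each of the 4 scalings.

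Where the scale was changed, the list moved with the table. With the trimmed-mean factor the median was -0.045 for release genes and 0.057 for all compared genes. It was 0.26 for release genes and 0.28 for all compared genes after quantile normalization, and 2.56 and 2.53 with equal sums. Relative to all compared genes the release genes thus stood at -0.085 as deposited and between -0.10 and 0.028 under the other 3 scalings. The genes lower under all 4 scalings must lie below the equal-sums medians, since they were picked for being below 0 there. Their values under equal sums were -6.14 in Syn1, -3.81 in Syn3, -3.11 in Rims2, -3.04 in Snap91 and -1.65 in Stx6.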

How the data were processed

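RNA of 2 libraries of new and 2 of original hair cells was sequenced. Per the submitters' processing notes, the tools were CASAVA 1.8, Trimmomatic and TopHat and the genome build was mm10. The programs behind the expression values and p-values were not given in the sources used here. Per the file headers, the deposited table holds 1 FPKM value for each gene in each group, so both libraries of a group were pooled or averaged by the authors. It also holds an unadjusted p-value and a log2 ratio of new over original, both as the authors deposited them. The log2 ratio cell is text where a group is at 0, and for each of the 67 release genes above 0 in both groups it lay within 0.01 of the ratio of the FPKM columns.

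Members, gene lists and settings were chosen with earlier results of these data known. Genes above 0 in both groups that reached 1 FPKM in either were compared as log2(FPKM + 1), new minus original. That scale understates differences of low genes, and folds of single genes are plain FPKM ratios. The limma test planned across libraries could not be fitted to 1 value per group. Benjamini-Hochberg adjustment of the deposited p-values ran over the 9026 compared genes. Named were all members with at least 5 FPKM in either group, those with a deposited p under 0.05 and members fixed by role, and others were named after their values were seen. A member fixed by role and a marker gene are not reported here. Depth is unknown, so no interval or detection floor is given. Of the 78 members 16 share their locus with another row. Among 6016 genes with the same end as in the GENCODE annotation of mm10, 2977 start exactly 1 base lower, so 1 was added to starts. Promoter windows are RefSeq's. The trimmed-mean factor, quantile normalization and the adjustment were tested on simulated data, and equal sums were not. The simulated differences were fewer and more balanced than those seen here, so they cannot show which scaling suits these data. Alternatives were equal FPKM sums, quantile normalization, trimmed-mean scaling (trimming 30% of ratios and 5% of levels from each end), a minimum of 5 FPKM, no minimum, a pseudocount of 0.1, no rows sharing a locus, and no Rab30 to Rab39b. The software was matplotlib 3.10.9, scipy 1.17.1, pandas 2.3.3, numpy 2.4.6 and Python 3.11.15.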

Additional observations from a re-analysis of the deposited data

How the results depend on the processing

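Scaling decided most counts. Of the 40 compared release genes 10 were lower by at least 2-fold and 7 higher by at least 2-fold in new hair cells as deposited. With the trimmed-mean factor these were 7 and 9 (all compared genes 32.1% and 26.2%), after quantile normalization 5 and 12 (26.1% and 31.9%), and with equal FPKM sums 5 and 34 (15% and 69.6%), where 5 release genes were lower in all. The median log2 difference of -0.29 turned to 0.26 after quantile normalization and 2.56 with equal sums, and was -0.045 with the trimmed-mean factor. It was -0.40 with a pseudocount of 0.1 (all compared genes -0.26), -0.094 without a filter (-0.041), -0.75 with a filter of 5 FPKM (-1.11), and -0.49 without Rab30 to Rab39b (-0.21). Set against all compared genes, the release genes thus stood at 0.36 with a filter of 5 FPKM and at -0.28 without Rab30 to Rab39b, against -0.085 in the comparison as reported. Without a filter 39 of 67 genes were lower (53.8% of all genes). With a filter of 5 FPKM 14 of 22 were lower (64.3%) and 4 at least 2-fold higher (21.7%). Without Rab30 to Rab39b 4 of 33 were at least 2-fold higher (19.8% of all compared genes) and 10 at least 2-fold lower (34.9%). Without rows that share a locus 6 of 30 were at least 2-fold lower (34.6%). The log2 differences of Vamp2 and Stx7 turned to 0.66 and 0.47 after quantile normalization. With equal sums Vamp2 turned to 1.94, Stx7 to 1.72, Rab3a to 1.797 and Stx4a to 0.16. A sum is led by few abundant genes, and the cause of the unequal sums was not tested.

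No paired analysis was possible because the table holds 1 value per group, with no column per library. Leaving out each library in turn was not run for the same reason.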
